A study of Homo sapiens with 18 samples.

Results

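OVCAR3-KRAB cells derive from the established ovarian cancer line OVCAR3 and carry dCas9-KRAB, a nuclease-dead Cas9 fused to a repressor domain that an sgRNA brings to a promoter. Cells with sgCtl (a control guide against the Gal4 promoter), sgXIST7 or sgXIST9 (guides against the XIST promoter) were kept in normoxia or for 24 h in a chamber with 1% oxygen. Each of the 6 groups had 3 replicates, which gives 18 RNA-seq libraries of total RNA. The 3 replicate 3 libraries in hypoxia, 1 each of sgCtl, sgXIST7 and sgXIST9, are described here against the 6 replicate 1 and 2 libraries in hypoxia, with the guide as a block. They were singled out because their values stood apart in an earlier look at the same counts. The hypoxia values of replicate 3 were therefore selected on the readout and are given as a description with no test, whereas the 9 normoxia libraries played no part in the choice and were tested. The 3 lines share the parental cells, the dCas9-KRAB vector and both drug selections. The cells were clonal, and how many clones of each guide the libraries came from is not given in the sources used here, so that guide and clone cannot be told apart. The word line stands below for the cells with a given guide. The labels number the replicates without saying whether a number stands for a culture, a day or a preparation, so that the p-values measure the spread between these libraries, which may be technical.

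At low oxygen, hydroxylation of HIF alpha subunits fails and HIF accumulates and activates genes for glycolysis, glucose uptake, collagen modification and blood vessel growth. Prolonged or severe hypoxia also engages the integrated stress response, in which phosphorylation of eIF2 alpha limits general translation and favours translation of ATF4, a factor for genes of amino acid synthesis, amino acid transport and tRNA charging. Heat shock genes are driven by HSF1 when unfolded protein builds up in the cytosol, and interferon-stimulated genes by STAT and IRF factors.

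The targeted gene was checked first. XIST, the noncoding RNA that silences an X chromosome in cis, is listed at chrX:73820651-73852753 on the minus strand of hg38. In hypoxia, the CPM of XIST (counts relative to the library total, scaled by TMM over the 18 libraries) in replicates 1, 2 and 3 were 123, 248 and 141 in sgCtl, 0, 0.0905 and 0.259 in sgXIST7 and 16.2, 21.4 and 32.2 in sgXIST9. Replicate 3 held the most XIST in sgCtl, less in sgXIST9 and almost none in sgXIST7, the same order as in replicates 1 and 2, and the 3 lines did not overlap. Total counts of replicate 3 were the lowest of each line in hypoxia, at 12042716 in sgCtl, 13483871 in sgXIST7 and 16208517 in sgXIST9, against 15696888 to 24906936 in replicates 1 and 2. The number of genes with a count was lowest in replicate 3 as well, from 16982 to 17497 against 18006 to 19534. Depth thus moved with the replicate number. With the 9 libraries thinned to the smallest total, an alternative added after the data were seen, edgeR gave 3598 genes past an adjusted p of 0.05 in place of 3783, and the log2 fold changes of the 30 genes with the largest differences, named below, moved by less than the spread between replicates 1 and 2. RN7SL1, a small cytoplasmic RNA and the gene with the most counts, took 5.05% to 6.61% in replicate 3 and 5.58% to 8.13% in replicates 1 and 2.

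Of 12 markers of Mullerian epithelium, 8 could be tested in hypoxia. EPCAM was at 156, 165 and 158 CPM in sgCtl, 228, 233 and 234 CPM in sgXIST7, and 236, 218 and 251 CPM in sgXIST9, and KRT18 and KRT8 were detected in each library, whereas MUC16, KRT7, CDH1 and SOX17 had at most 0.181 CPM in any hypoxia library. MUC16 codes for CA125, so that this defining marker of the labelled cell line was all but absent from these counts, in replicate 3 and in the others. The identity of the cells rests on the labels and was not tested here. Of 12 leukocyte markers, 3 (CD3D, MS4A1 and NKG7) had no count in any of the 18 libraries, and the summed level of the list was 19.9 to 25.7 CPM in replicate 3 and 13.6 to 26.9 CPM in replicates 1 and 2, most of it CD68. The 8 endothelial markers summed to at most 0.259 CPM in replicate 3 and 1.34 CPM in the others. The 10 fibroblast markers summed to 444 to 1300 CPM in replicate 3 and 647 to 1130 CPM in replicates 1 and 2. Which cells this RNA came from was not tested. In such bulk samples, fewer cells of a kind and less RNA per cell cannot be told apart.

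The distance between replicates was taken over 10711 genes with a mean of at least 100 counts. In sgCtl hypoxia, replicates 1 and 2 differed over 2-fold at 35 genes, replicates 1 and 3 at 726 and replicates 2 and 3 at 1159. In sgXIST9 hypoxia the same pairs differed at 24, 194 and 592 genes. In sgXIST7 hypoxia they differed at 71, 406 and 91 genes, so that replicate 3 was about as far from replicate 2 as replicate 2 was from replicate 1. Replicate 3 thus stood apart in sgCtl and sgXIST9, while in sgXIST7 replicate 2 lay between the others. In normoxia the 9 pairs differed at 15 to 170 genes, and the pairs with the highest numbers, 170 and 129, both involved sgXIST7 replicate 2. The deviations of replicate 2 of sgCtl and sgXIST7 in normoxia from their group means had r = 0.65. For replicate 3 of sgCtl and sgXIST9 in hypoxia r was 0.64. A shared deviation of same-numbered libraries was thus not confined to replicate 3 in hypoxia. Both replicate 2 libraries belong to those that replicate 3 is set against in normoxia below. No pair agreed within sampling noise (chi-square per degree of freedom from 3.22 to 58.7), and each library was counted once.

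**Figure D1:**
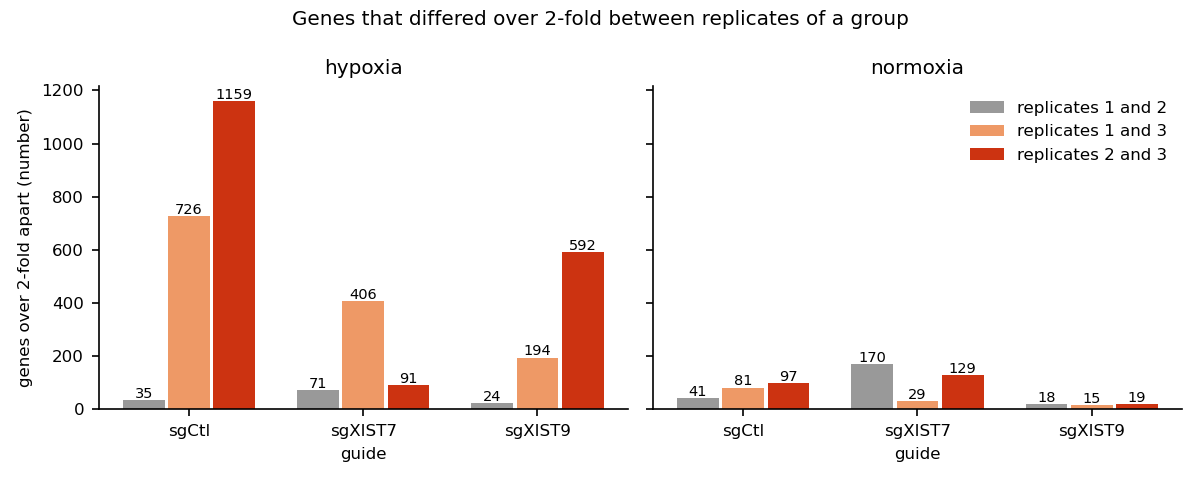
Bars give the number of genes, of 10711 with a mean of at least 100 counts, that differed over 2-fold between 2 replicates of a group, by guide in hypoxia (left) and normoxia (right). Pairs with replicate 3 reach 1159 genes in sgCtl hypoxia and 592 in sgXIST9 hypoxia, while in sgXIST7 hypoxia the pair of replicates 2 and 3 gave 91.

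The replicate 3 contrast in hypoxia covered 14987 genes. At the adjusted p of 0.05 used to describe it, 1907 genes (12.7%) were higher and 1876 (12.5%) lower in replicate 3. Replicate 3 lay above both other replicates in each of the 3 lines at 2813 genes (18.8%) and below both at 2898 (19.3%). Among these, 247 were over 2-fold higher and 589 over 2-fold lower in the fit. In normoxia the same counts were 11 higher and 25 lower, so that an excess of lower genes was not particular to hypoxia. Replicate 3 was also the shallowest library of each line in hypoxia, and the part of depth in this excess was not tested. The median of the absolute log2 fold change was 0.29 in hypoxia and 0.085 in normoxia. In sgXIST7, replicate 2 was nearer than replicate 1 to replicate 3 at 77.9% of the 2813 genes and 76.1% of the 2898, against 31.9% and 36.5% in sgCtl and 23% and 27.4% in sgXIST9. The count of 3783 fell to 1538 without sgCtl replicate 3, to 1319 without sgXIST9 replicate 3 and to 2465 without sgXIST9 replicate 2. It was 1103 with the sgCtl line left out, 739 with sgXIST9 left out and 3550 with sgXIST7 left out.

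Genes of the ATF4 response formed the list with the highest median. Of 39 members measured, 26 were above both other replicates in each line and 1 (CTH) was below, beside 18.8% and 19.3% over all genes. The median log2 fold change was 0.69, against -0.01 over all 14987 genes. The median difference of replicate 3 from the mean of the others, on the log2(CPM + 0.5) scale, was 0.58 in sgCtl, 0.85 in sgXIST7 and 0.81 in sgXIST9. The list median stayed between 0.61 and 0.80 in 19 alternative settings.

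SESN2, a stress-induced inhibitor of mTORC1 signalling, was at 43.8, 44.5 and 144 CPM in sgCtl, 31.4, 68.9 and 153 CPM in sgXIST7, and 25.5, 26.8 and 66.3 CPM in sgXIST9, for replicates 1, 2 and 3 in that order as in all such values that follow. In normoxia its 9 libraries held 13.6 to 19.7 CPM. Each replicate 3 library lay above the other hypoxia libraries of its line, with a log2 fold change of 1.56 (SE 0.19). MARS1, the cytosolic methionyl-tRNA synthetase, was at 97.4, 95.5 and 253 CPM in sgCtl, 122, 166 and 269.7 CPM in sgXIST7, and 87.5, 68.6 and 234 CPM in sgXIST9, a log2 fold change of 1.31 (SE 0.14). In replicates 1 and 2 its hypoxia levels lay below or within the normoxia range of 112 to 189 CPM, and in replicate 3 they lay above it. PCK2, the mitochondrial form of phosphoenolpyruvate carboxykinase, was at 69.3, 53.5 and 159 CPM in sgCtl, 80.1, 105 and 181 CPM in sgXIST7, and 64.4, 46.95 and 151 CPM in sgXIST9. Its log2 fold change was 1.27 (SE 0.14), and the normoxia range was 25.1 to 42.3 CPM. CHAC1, a glutathione-degrading enzyme, was at 33.9, 36.7 and 68.1 CPM in sgCtl, 27.8, 36.9 and 78.6 CPM in sgXIST7, and 12.6, 10.4 and 42.2 CPM in sgXIST9. ASNS, asparagine synthetase, was at 5.11, 4.25 and 10.3 CPM in sgCtl, 4.16, 4.98 and 12.9 CPM in sgXIST7, and 4.10, 3.62 and 9.96 CPM in sgXIST9. Both genes had replicate 3 as the highest library of each line, with log2 fold changes of 1.38 and 1.35. ASNS was low in all libraries, and its normoxia range of 1.22 to 3.1 CPM did not overlap with any hypoxia library.

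The aminoacyl-tRNA synthetases on the list, named after their values were seen, showed the same order. GARS1 was at 200.4, 220.2 and 446 CPM in sgCtl, 275, 389.8 and 700.0 CPM in sgXIST7, and 212, 154 and 514 CPM in sgXIST9, with a log2 fold change of 1.23. WARS1 (1.12), AARS1 (0.79), EPRS1 (0.71), SARS1 (0.64) and NARS1 (0.47) were higher in replicate 3 in each line, whereas CARS1 (0.99) was not above both in sgXIST9. PSAT1 (0.99), PHGDH (0.90), MTHFD2 (0.90) and SHMT2 (0.62), list members that code for enzymes of serine and one-carbon metabolism and were likewise named after their values were seen, were above both in each line. ATF4 itself was at 262, 282 and 406 CPM in sgCtl, 279, 329.7 and 477 CPM in sgXIST7, and 165, 154 and 305 CPM in sgXIST9, a log2 fold change of 0.73. FGF21 and GDF15, secreted stress hormones, had log2 fold changes of 3.14 and 1.57 at low levels of at most 2.76 and 13.9 CPM in hypoxia. CTH, an enzyme of cysteine synthesis, was the exception at -0.74.

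The promoters of 2 of these genes and of 2 heat shock genes are shown to make the elements of both responses visible. RefSeq windows on GRCh38.p14 were searched in the 250 bases before the start, on both strands. The C/EBP-ATF response element, written TGATGNAA, was found in 5 of 34 matched members of the ATF4 list (14.7%) and in 162 of 11141 promoters of all genes tested (1.45%). The heat shock element, written TTCNNGAA, was found in 4 of 19 matched members of the heat shock list (21.1%) and in 575 of the 11141 (5.16%). The core of the HIF element, ACGTG, was found in 13 of 25 matched members of the HIF list (52%) and in 2582 (23.2%) of all. The lines below read 5′ to 3′ on the strand of the gene, with the element in capitals. ASNS covers chr7:97872409-97872528 (minus strand), CHAC1 chr15:40953221-40953340 (plus), HSPA6 chr1:161524420-161524539 (plus) and CHORDC1 chr11:90223050-90223169 (minus, 3 elements).
ASNS: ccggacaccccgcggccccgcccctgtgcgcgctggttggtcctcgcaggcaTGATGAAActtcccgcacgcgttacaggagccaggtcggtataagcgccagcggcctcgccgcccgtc
CHAC1: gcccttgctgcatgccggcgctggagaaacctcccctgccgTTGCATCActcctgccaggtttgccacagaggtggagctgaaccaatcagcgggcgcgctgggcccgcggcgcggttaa
HSPA6: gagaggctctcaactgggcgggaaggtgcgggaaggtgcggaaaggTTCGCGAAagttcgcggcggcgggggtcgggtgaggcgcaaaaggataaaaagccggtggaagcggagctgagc
CHORDC1: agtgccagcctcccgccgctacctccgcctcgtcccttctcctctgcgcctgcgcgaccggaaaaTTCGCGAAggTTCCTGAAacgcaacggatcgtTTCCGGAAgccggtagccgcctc
In CHAC1 the element reads on the opposite strand. A match describes letters in a window and not a bound site. The lists were drawn up as responsive genes, and the sequences do not depend on these libraries. The higher shares in the lists are therefore no evidence on replicate 3.

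HIF-responsive genes were higher in replicate 3 too. Of 29 measured, 18 lay above both other replicates in each line and 1 below, beside 18.8% and 19.3% over all genes. The list median was 0.47. Line by line it was 0.37 in sgCtl, 0.42 in sgXIST7 and 0.58 in sgXIST9 on the log2(CPM + 0.5) scale. MXI1, a repressor of MYC targets, was at 40.2, 33.9 and 97.6 CPM in sgCtl, 78.2, 124 and 169 CPM in sgXIST7, and 57.8, 44.05 and 92.7 CPM in sgXIST9, with a normoxia range of 3.58 to 7.76 CPM and a log2 fold change of 1.01 (SE 0.17) between the hypoxia replicates. SLC2A3, a glucose transporter, was at 149.9, 115 and 211 CPM in sgCtl, 114, 186 and 294 CPM in sgXIST7, and 73.04, 54.3 and 154 CPM in sgXIST9, a log2 fold change of 0.98 (SE 0.17). Both genes were well above their normoxia range in all 9 hypoxia libraries, and replicate 3 was the highest of each line. CA9, a carbonic anhydrase at the cell surface, was at 0.685, 0.297 and 2.92 CPM in sgCtl, 13.8, 23.4 and 35.6 CPM in sgXIST7, and 24.9, 18.02 and 44.8 CPM in sgXIST9. The sgCtl line thus held little CA9 in any replicate, and the log2 fold change was 1.24. ERO1A, an oxidase of the endoplasmic reticulum (0.89), and INSIG2, a retention factor for SREBP (0.89), were on the same side. HILPDA, a lipid droplet protein outside the list and named after its values were seen, was at 64.8, 40.3 and 195 CPM in sgCtl, 73.6, 124 and 163 CPM in sgXIST7, and 63.5, 40.2 and 188 CPM in sgXIST9, a log2 fold change of 1.53. EGLN3, a HIF prolyl hydroxylase, was the exception, at 12.02, 13.9 and 2.74 CPM in sgCtl, 1.39, 1.09 and 0.518 CPM in sgXIST7, and 2.23, 2.22 and 0.820 CPM in sgXIST9. It was lower in replicate 3 of each line (-1.78), while NDRG1 (-0.17), PFKFB3 (-0.06) and BHLHE40 (0.03) stayed close to 0.

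Hypoxia against normoxia was fitted over replicates 1 and 2 alone. It used 12 libraries and shares the 6 hypoxia libraries of replicates 1 and 2 with the replicate 3 contrast, so that values are only set side by side. By edgeR at an adjusted p of 0.01 and an absolute log2 fold change above 1, 2243 of 14936 genes (15%) rose and 1427 (9.55%) fell. On the HIF list 27 of 29 genes rose and 0 fell, with a median log2 fold change of 3.32, beside 0.47 for replicate 3 against the others. Glycolysis genes had a median of 1.39 with 13 of 18 risen, beside 0.23. Of the ATF4 list 12 of 38 rose and 1 fell, with a median of 0.55, beside 0.69. For heat shock genes 5 of 21 rose and the median was 0.56, beside -0.49, and for interferon-stimulated genes 4 of 20 rose, 3 fell and the median was -0.09, beside -0.49.

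Glycolysis genes had 7 of 18 members above both other replicates in each line and 2 below, beside 18.8% and 19.3% over all genes. ENO2, a form of enolase, was at 166, 103 and 413 CPM in sgCtl, 254, 444 and 467 CPM in sgXIST7, and 159.8, 99.1 and 350.1 CPM in sgXIST9, a log2 fold change of 1.19 (SE 0.29). HK1 (0.63), PFKL (0.57) and PFKP (0.54), which code for hexokinase and phosphofructokinase subunits, were above both as well. ALDOC, at 0.70, was not above both in sgXIST7, where replicate 2 was highest. Genes below both were SLC16A1, a lactate transporter (-0.33), and PKM (-0.17). ER chaperone genes were on the same side at a smaller size, with 9 of 25 above both, 0 below and a median of 0.12. Of these P4HB, a protein disulfide isomerase, was at 609, 553 and 948 CPM in sgCtl, 752, 936 and 1254 CPM in sgXIST7, and 560.5, 493 and 755 CPM in sgXIST9, a log2 fold change of 0.60. ERN1, the IRE1 sensor, had -0.60 and did not lie below both in each line. The ER list median was -0.05 in sgCtl, 0.42 in sgXIST7 and 0.23 in sgXIST9.

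**Figure D2:**
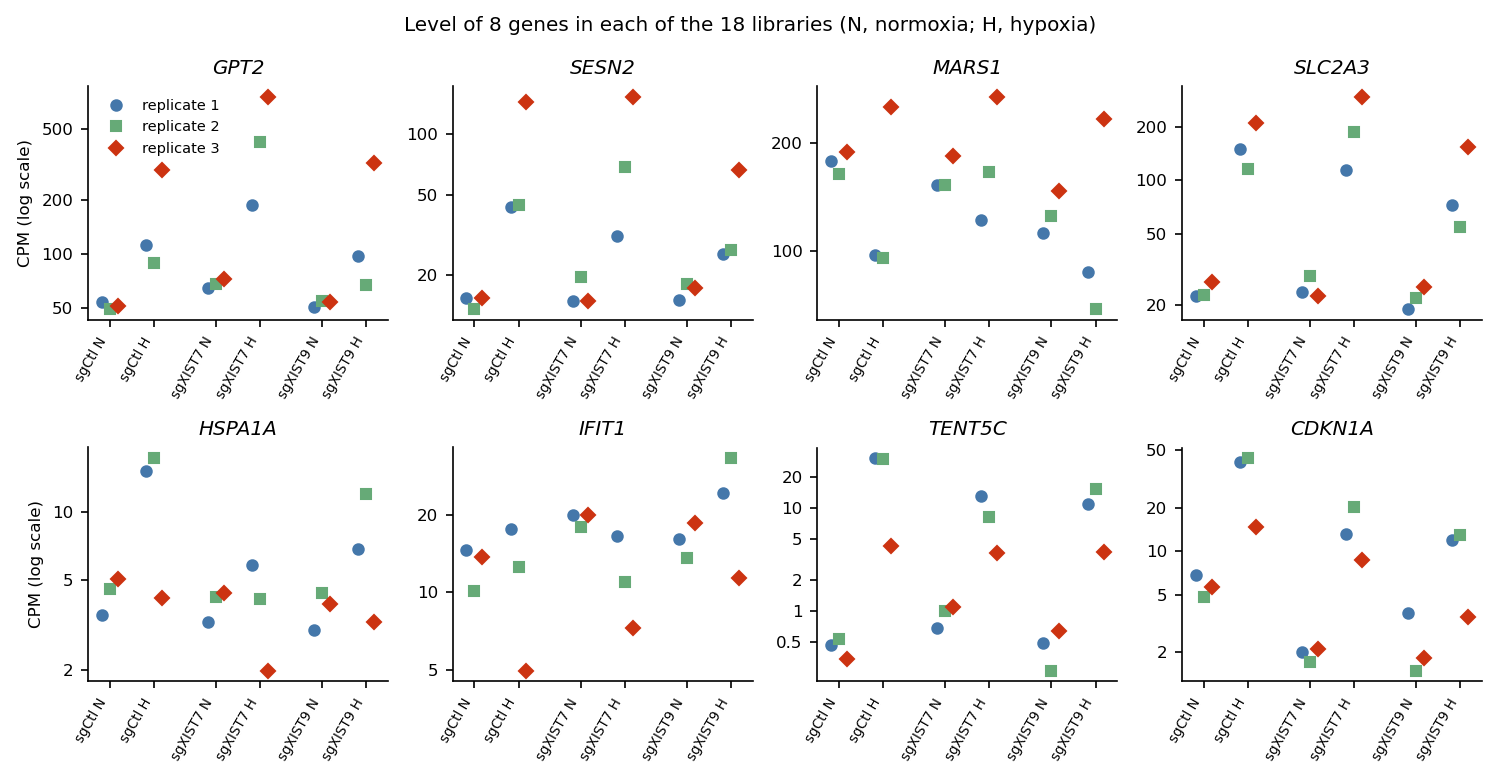
CPM on a log scale of 8 genes in each of the 18 libraries, by line and oxygen (N, normoxia; H, hypoxia), with circles, squares and diamonds for replicates 1, 2 and 3. The replicate 3 diamonds in hypoxia are the highest of their line for GPT2, SESN2, MARS1 and SLC2A3 and the lowest for HSPA1A, IFIT1, TENT5C and CDKN1A, with sgXIST7 replicate 2 often between replicates 1 and 3.

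Heat shock genes went the other way. Of 22 measured, 14 lay below both other replicates in each line and 0 above, beside 19.3% and 18.8% over all genes. The median log2 fold change was -0.49. The medians by line were -0.65 in sgCtl, -0.32 in sgXIST7 and -0.33 in sgXIST9. HSPA1A, an inducible HSP70, was at 15.3, 17.4 and 4.16 CPM in sgCtl, 5.87, 4.12 and 1.99 CPM in sgXIST7, and 6.87, 12.1 and 3.28 CPM in sgXIST9, a log2 fold change of -1.63 (SE 0.24). HSPA1B, at -1.11, codes for nearly the same protein, and reads of both genes are hard to tell apart, so that their separate values are uncertain. In normoxia HSPA1A held 2.99 to 5.06 CPM, and the replicate 3 libraries in hypoxia were near that range while the others of sgCtl and sgXIST9 were above it. HSPH1, a co-chaperone of HSP70, was at 331, 444 and 177 CPM in sgCtl, 218, 200.3 and 137 CPM in sgXIST7, and 166, 233 and 133 CPM in sgXIST9, a log2 fold change of -0.76 (SE 0.15). AHSA1 (-0.70), an activator of HSP90, and DNAJB1 (-0.66), an HSP40, were below both in each line too. HSPA6 and CHORDC1, whose promoters are shown above, had -2.17 and -0.56, and HSPA6 had a mean under 100 counts in hypoxia. HSF4, a heat shock factor outside this list, was at 9.78, 5.39 and 55.7 CPM in sgCtl, 28.4, 42.01 and 60.1 CPM in sgXIST7, and 21.2, 14.99 and 54.6 CPM in sgXIST9 and thus higher in replicate 3 (1.79).

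Interferon-stimulated genes were lower, with 12 of 20 below both other replicates in each line and 0 above, beside 19.3% and 18.8% over all genes. Their median was -0.49. Line by line the median was -0.31, -0.53 and -0.55 in sgCtl, sgXIST7 and sgXIST9. IFIT1, which binds viral RNA caps, was at 17.6, 12.6 and 4.95 CPM in sgCtl, 16.6, 10.96 and 7.25 CPM in sgXIST7, and 24.3, 33.2 and 11.4 CPM in sgXIST9, a log2 fold change of -1.27 (SE 0.21). OAS2, an oligoadenylate synthetase, was at 5.23, 4.01 and 3.36 CPM in sgCtl, 15.1, 12.1 and 4.58 CPM in sgXIST7, and 17.2, 20.1 and 10.8 CPM in sgXIST9 (-0.93), and DDX58, the RIG-I sensor, at 47.03, 41.2 and 35.5 CPM in sgCtl, 29.4, 25.9 and 10.3 CPM in sgXIST7, and 48.05, 54.8 and 27.6 CPM in sgXIST9 (-0.83). In each of these genes the lowest hypoxia library of the line was replicate 3. STAT2 (-0.52) and IFI6 (-0.50) were below both in each line as well. In normoxia the list median of replicate 3 was 0.05, with 0 of 20 members above both other replicates in each line and 0 below.

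**Figure D3:**
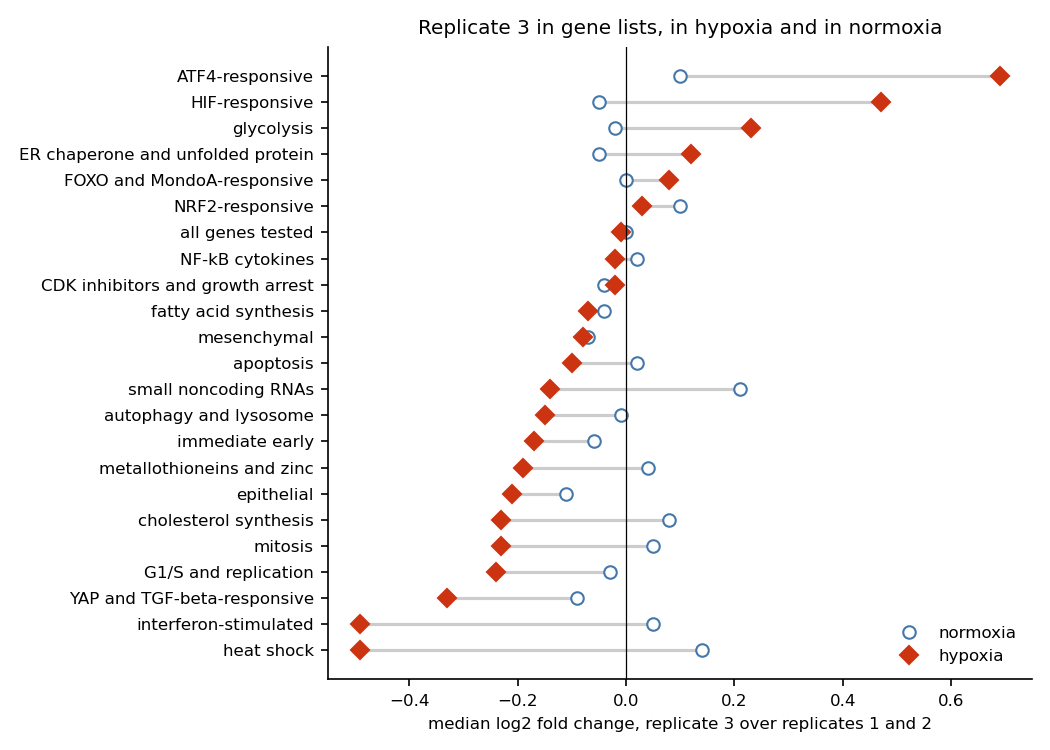
Median log2 fold change of replicate 3 over replicates 1 and 2 in 22 gene lists and over all genes tested, in hypoxia (diamonds) and in normoxia (open circles). In hypoxia the medians run from -0.49 (heat shock, interferon-stimulated) to 0.69 (ATF4-responsive), while in normoxia they stay between -0.11 and 0.21.

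Not every list moved alike in the 3 lines. Over all genes 18.8% lay above both other replicates in each line and 19.3% below, and counts near these shares set no list apart. Cholesterol synthesis genes had 9 of 25 below both and a median of -0.23, made of 0.15 in sgCtl, -0.32 in sgXIST7 and -0.45 in sgXIST9. TMEM97, a sterol-regulated membrane protein, was at 32.8, 44.4 and 13.5 CPM in sgCtl, 19.01, 11.2 and 6.47 CPM in sgXIST7, and 27.7, 36.4 and 11.2 CPM in sgXIST9, and EBP, a sterol isomerase, had -0.68 beside -1.42 for TMEM97. Genes of the G1/S transition and replication had 6 of 25 below and 1 above with a median of -0.24, from 0.03 in sgCtl and -0.24 in sgXIST7 to -0.50 in sgXIST9. UNG, a uracil-DNA glycosylase (-0.64), and MCM4, a helicase subunit (-0.57), were below both in each line. MCM10 (-0.61) was not, since sgCtl replicate 3 lay between the others. Mitosis genes had a median of -0.23, yet -0.41 in sgCtl, 0.25 in sgXIST7 and -0.48 in sgXIST9, and 1 of 25 (BUB1) lay above both in each line. YAP and TGF-beta-responsive genes had a median of -0.33 with 6 of 13 below and 2 above, at -0.67 in sgCtl and -0.05 and -0.14 in the KD lines. THBS1, thrombospondin 1, was below both in each line (-1.83) and AXL, a receptor tyrosine kinase, above (1.03). The epithelial median of -0.21 came from 9 genes, with 1 above and 1 below, and was -0.32 in sgCtl, -0.09 in sgXIST7 and 0.09 in sgXIST9.

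Single libraries set the size of these medians. Without sgCtl replicate 3 the mitosis median was -0.072, the G1/S median -0.382 and the YAP and TGF-beta median -0.218. Without sgXIST7 replicate 3 the mitosis median was -0.482, the YAP and TGF-beta median -0.515 and the epithelial median -0.034. Without sgXIST9 replicate 3 the G1/S median was -0.068, the cholesterol median -0.133 and the epithelial median -0.349. The epithelial median was also -0.076 without sgCtl replicate 1 and -0.084 in the fit of the 18 libraries. All of these kept their sign.

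**Figure D4:**
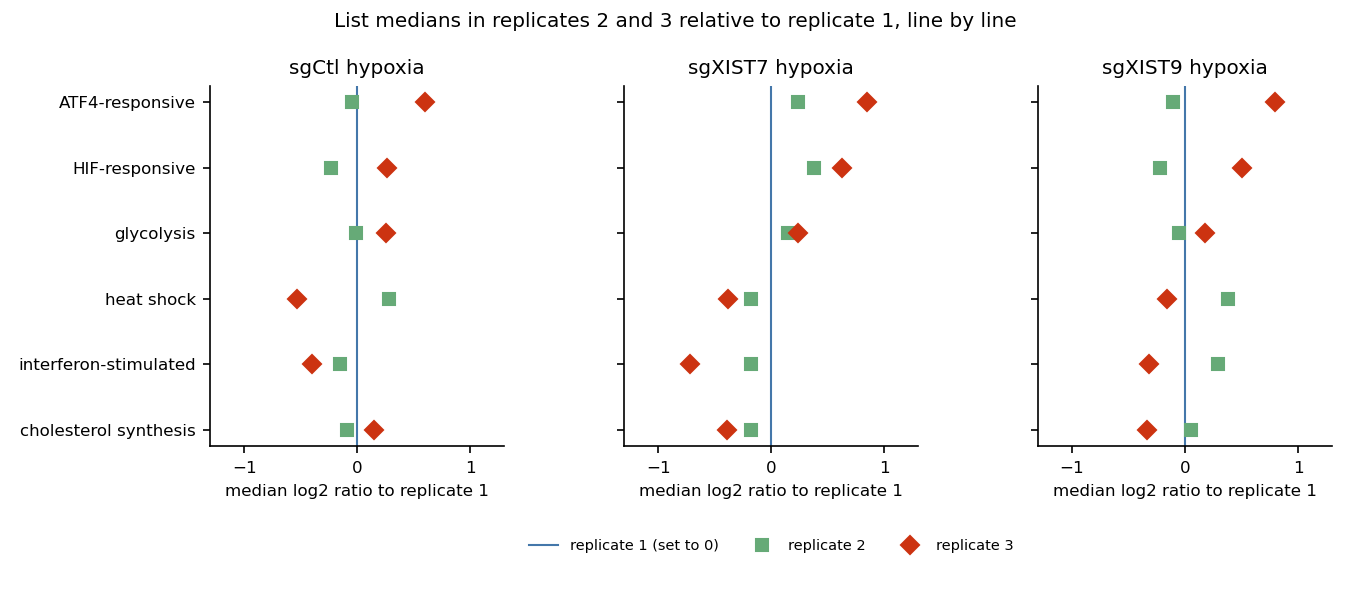
Median over the genes of 6 lists of the log2 ratio to replicate 1 in hypoxia, on the log2(CPM + 0.5) scale, for replicate 2 (squares) and replicate 3 (diamonds) in each line of cells. Replicate 3 is right of 0 for the ATF4, HIF and glycolysis lists and left of 0 for heat shock and interferon genes in all 3 lines of cells, and replicate 2 sits on the same side as replicate 3 for these lists in sgXIST7 (0.24 and 0.85 for ATF4).

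Further lists had pooled medians closer to 0, some of them from lines that differed. Their counts stand beside 18.8% above both and 19.3% below over all genes, and many were near these shares. Apoptosis genes had 6 of 19 below both and 2 above with a median of -0.10, made of -0.42 in sgCtl, 0.12 in sgXIST7 and -0.14 in sgXIST9. Of these BIK (-0.96) and BCL2L11 (-0.70), pro-apoptotic BH3-only genes, were lower, and CASP8 was higher (0.59). BMF, a BH3-only gene with a mean of 86 counts named after its values were seen, was at 3.99, 5.84 and 0.442 CPM in sgCtl, 3.58, 1.86 and 0.691 CPM in sgXIST7, and 7.96, 12.1 and 1.32 CPM in sgXIST9, a log2 fold change of -2.79 (SE 0.36). CDKN1A, the p21 inhibitor of CDKs, was at 41.4, 44.02 and 14.6 CPM in sgCtl, 13.2, 20.4 and 8.72 CPM in sgXIST7, and 11.9, 12.9 and 3.53 CPM in sgXIST9 (-1.41), while GADD45A, another growth arrest gene, was higher at 0.87. Immediate early genes had 4 of 34 above, 4 below and a median of -0.17, which was -0.56 in sgCtl, 0.16 in sgXIST7 and 0.03 in sgXIST9. JUN (0.81) and IER5 (-1.12) lay on opposite sides. NRF2-responsive genes had 4 of 20 above and 5 below with HMOX1, heme oxygenase 1, at -0.66. Autophagy and lysosome genes had 0 of 20 above and 4 below with a median of -0.15. For NF-kB cytokines (1 above, 3 below of 10), FOXO and MondoA genes (3 and 4 of 17), CDK inhibitors and growth arrest (3 and 2 of 13), fatty acid synthesis (2 and 0 of 11), mesenchymal genes (2 and 3 of 16), small noncoding RNAs (2 and 3 of 20) and metallothionein and zinc genes (0 and 1 of 4), the medians lay between -0.19 and 0.08. The metallothionein and zinc median was -0.78 in sgCtl, against -0.02 in sgXIST7 and -0.01 in sgXIST9, and that of CDK inhibitors and growth arrest -0.26, 0.23 and -0.08.

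Among genes with a mean of at least 100 counts in hypoxia and replicate 3 beyond both others in each line, the 15 with the largest positive differences were SLC16A6, ANK2, SEMA3B, YPEL1, PIP5KL1, HSF4, FBXL8, HOXA13, HSPG2, MAMDC4, GPT2, SESN2, MPP2, SEPHS1 and HES4. Their log2 fold changes ran from 1.54 to 2.27. GPT2, the mitochondrial alanine aminotransferase, was at 113, 89.7 and 294 CPM in sgCtl, 189, 422 and 759.8 CPM in sgXIST7, and 97.4, 67.5 and 323 CPM in sgXIST9, with a normoxia range of 49.3 to 73.1 CPM and a log2 fold change of 1.62 (SE 0.24). It lies at chr16:46884362-46931289 on the plus strand. SEPHS1, a selenophosphate synthetase family member, was at 97.3, 88.8 and 371 CPM in sgCtl, 438, 678 and 1001 CPM in sgXIST7, and 354, 188 and 876 CPM in sgXIST9, a log2 fold change of 1.54 (SE 0.25). Both genes were expressed at high counts and replicate 3 was 1.80 to 3.99 times the mean of replicates 1 and 2 of its line. ANK2, an ankyrin that anchors membrane proteins, was at 5.48, 4.30 and 33.6 CPM in sgCtl, 8.69, 12.6 and 26.1 CPM in sgXIST7, and 6.14, 5.57 and 32.9 CPM in sgXIST9. SEMA3B, a secreted semaphorin, was at 3.36, 3.41 and 22.1 CPM in sgCtl, 38.9, 68.9 and 144 CPM in sgXIST7, and 11.2, 8.15 and 43.9 CPM in sgXIST9. HSPG2, the basement membrane proteoglycan perlecan, was at 21.7, 22.6 and 131 CPM in sgCtl, 78.04, 189.8 and 312 CPM in sgXIST7, and 45.6, 40.2 and 96.4 CPM in sgXIST9. For ANK2, SEMA3B and HSPG2 the fold over replicates 1 and 2 was largest in sgCtl, at 6.87, 6.53 and 5.93, against 2.25 to 5.62 in the KD lines. SLC16A6, a monocarboxylate transporter family member with a mean of 103 counts, was at 2.49, 1.39 and 13.4 CPM in sgCtl, 1.29, 3.26 and 3.80 CPM in sgXIST7, and 5.32, 1.99 and 25.5 CPM in sgXIST9, and its sgXIST7 replicate 3 was close to replicate 2.

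Under the same limits, the 15 genes with the largest negative differences were RAB7B, NEB, NPY1R, ADAMTS6, S1PR3, TENT5C, AKAP12, ZNF165, SYT11, SHISA2, RASSF2, GEM, THBS1, NPTX2 and NPTX1, with log2 fold changes from -2.56 to -1.77. TENT5C, a noncanonical poly(A) polymerase, was at 30.6, 29.7 and 4.33 CPM in sgCtl, 13.3, 8.15 and 3.71 CPM in sgXIST7, and 10.9, 15.3 and 3.78 CPM in sgXIST9, with a normoxia range of 0.266 to 1.09 CPM and a log2 fold change of -2.03 (SE 0.26). SYT11, a synaptotagmin of vesicle membranes, was at 25.2, 23.99 and 7.52 CPM in sgCtl, 24.9, 15.2 and 4.14 CPM in sgXIST7, and 31.3, 40.2 and 8.51 CPM in sgXIST9, with a normoxia range of 0.478 to 2.22 CPM and a log2 fold change of -2.0 (SE 0.19). Both genes were induced in hypoxia in all replicates (log2 fold changes of 4.79 and 4.77 in replicates 1 and 2), and in replicate 3 they reached 14.4% to 34.6% of the mean of replicates 1 and 2 of their line. NPTX2, a secreted pentraxin, was at 92.3, 94.96 and 14.5 CPM in sgCtl, 13.99, 12.1 and 6.13 CPM in sgXIST7, and 24.4, 30.5 and 9.52 CPM in sgXIST9 (-1.79). AKAP12, a scaffold for protein kinase A, was at 27.9, 30.5 and 7.08 CPM in sgCtl, 2.15, 1.04 and 0.777 CPM in sgXIST7, and 5.92, 6.61 and 1.07 CPM in sgXIST9 (-2.02). RAB7B, a Rab GTPase of late endosomes, was at 17.9, 18.7 and 3.10 CPM in sgCtl, 2.10, 1.09 and 0.173 CPM in sgXIST7, and 4.05, 5.21 and 0.883 CPM in sgXIST9, where the value of sgXIST7 replicate 3 rests on 2 counts. NEB, which codes for a large filament protein of muscle, the receptor gene NPY1R and the protease gene ADAMTS6 were low in normoxia, with at most 1.16, 2.25 and 5.72 CPM there.

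Normoxia offered a test on libraries that the selection had not used. By edgeR's quasi-likelihood test with the guide as a block, 0 of 14218 genes (0%) passed an adjusted p of 0.05 for replicate 3 against replicates 1 and 2, with 660 genes under an unadjusted p of 0.05. DESeq2 called 4, with 483 unadjusted. Replicate 3 lay above both others in each line at 727 genes (5.11%) and below both at 716 (5.04%), and 11 and 25 of these were over 2-fold apart. The smallest adjusted p by edgeR was 0.0654, for CWC25, a splicing factor gene. Its CPM in normoxia were 0.269, 0.0774 and 2.41 in sgCtl, 0.26, 0.111 and 1.27 in sgXIST7 and 0.224, 0.106 and 1.28 in sgXIST9, a log2 fold change of 3.07, and in hypoxia it was at 1.62, 0.148 and 0.177 CPM in sgCtl, 1.77, 0.181 and 0.0863 CPM in sgXIST7, and 0, 1.54 and 0.0630 CPM in sgXIST9. Replicate 3 was thus the highest library of each line in normoxia and held 1 to 2 counts in hypoxia, where 1 of the other replicates of each line was high. The next genes by p were GCG, NMNAT1, OXSM and WDR46 among those higher in replicate 3 (log2 fold changes 1.76, 0.50, 0.28 and 0.87) and RNA28SN2, CAPN15, CHTF18 and CABP1 among those lower (-2.10, -0.32, -0.46 and -2.03).

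In the lists, the normoxia medians of replicate 3 were small. Over all 14218 genes, 5.11% lay above both others in each line and 5.04% below. By edgeR, 660 of these genes were under an unadjusted p of 0.05. ATF4-responsive genes had a median of 0.10, with 8 of 37 above both in each line, 0 below, and 6 under an unadjusted p of 0.05. MARS1 was among the 8, at 179, 163 and 189 CPM in sgCtl, 153, 153 and 184 in sgXIST7 and 112, 125 and 147 in sgXIST9 (log2 fold change 0.24). Heat shock genes had 7 of 19 above both, 1 below, and 6 under an unadjusted p of 0.05. Their median was 0.14, on the other side of 0 from hypoxia. HIF-responsive genes had 0 of 26 above both, 4 below and a median of -0.05, and glycolysis genes 0 of 18 above, 1 below and a median of -0.02. In none of the lists was a gene called in normoxia by edgeR. Across the 13929 genes tested in both conditions, the log2 fold changes of replicate 3 in hypoxia and in normoxia, from libraries that do not overlap, had a Pearson r of 0.05 and a Spearman rho of 0, given as a description since genes are not independent.

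The difference between both conditions was fitted over the 18 libraries with a replicate 3 term in each. It contains the hypoxia values that the libraries were chosen on, so that its counts are a description and no evidence of a difference between the conditions. Of 15271 genes, 2446 (16%) passed an adjusted p of 0.05, 1193 of them with replicate 3 further up in hypoxia than in normoxia and 1253 with it further down. The count fell to 961, 862 and 1204 without replicate 3 of sgCtl, sgXIST7 and sgXIST9 in normoxia, and to 1325 and 1454 without replicate 3 of sgCtl and sgXIST9 in hypoxia.

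The comparisons of each KD line with sgCtl in hypoxia contain the replicate 3 libraries. By edgeR over the 9 libraries, at an adjusted p of 0.01 and an absolute log2 fold change above 1, 1347 of 14601 genes (9.23%) were called for sgXIST7 and 966 (6.62%) for sgXIST9. Without the 3 replicate 3 libraries the counts were 2550 and 1596, with 1266 and 907 genes shared with the full set. With the replicate number as a block they were 2206 and 1427, with 1328 and 959 shared. The common dispersion was 0.0509 over the 9 libraries, 0.0208 without replicate 3 and 0.0259 with the block. The replicate 3 libraries were chosen because their hypoxia values stood apart. A lower dispersion and more calls without them, or with the block, follow from that choice and are no evidence on the KD. Leaving out single libraries gave 2311 genes for sgXIST7 without sgCtl replicate 3, 752 and 742 without sgCtl replicates 1 and 2, and 659 and 802 without sgXIST7 replicates 2 and 3. For sgXIST9 it gave 636 and 582 without sgCtl replicates 1 and 2 and 582 without sgXIST9 replicate 1.

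**Figure D5:**
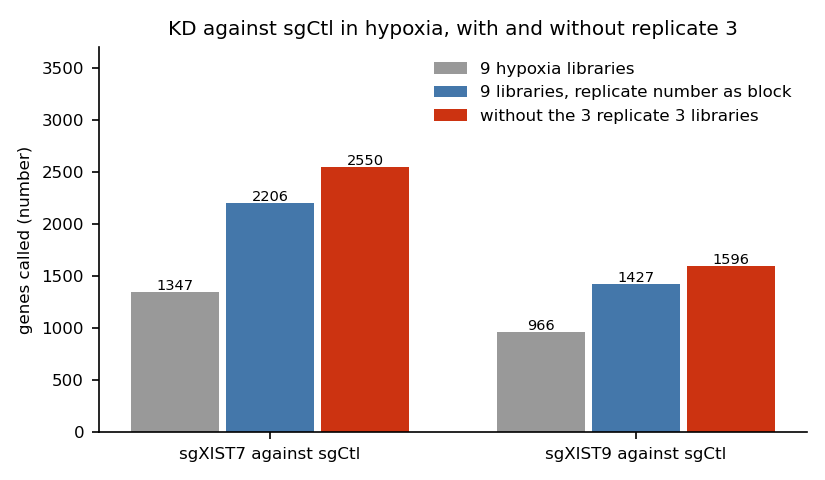
Bars give the number of genes called for sgXIST7 and sgXIST9 against sgCtl in hypoxia (edgeR, adjusted p under 0.01 and absolute log2 fold change above 1) with 9 libraries, with the replicate number as a block, and without the 3 replicate 3 libraries. The counts without replicate 3 are 2550 and 1596, above 1347 and 966 with all libraries. A rise follows from leaving out libraries that were chosen because their values stood apart.

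Genes the study followed varied in this respect. CD24, a surface glycoprotein with near-identical copies elsewhere in the genome that make its counts uncertain, was at 5.98, 7.32 and 2.21 CPM in sgCtl, 2.29, 0.996 and 0.604 CPM in sgXIST7, and 1.68, 1.63 and 0.252 CPM in sgXIST9. Replicate 3 was the lowest library of each line, with a log2 fold change of -1.79 (SE 0.35) at a mean of 47 counts. Against sgCtl in hypoxia, CD24 had log2 fold changes of -1.96 in sgXIST7 and -2.09 in sgXIST9, with adjusted p of 0.050 and 0.055 by edgeR over the 9 libraries. With the replicate number as a block they were -2.02 (SE 0.36) and -2.19 (SE 0.35), with adjusted p of 0.0015 and 0.0013 by edgeR. That block takes out the replicate 3 difference the libraries were chosen on. Its p-values are therefore a description and no test of the KD. CD24 was lower than in sgCtl in 3 of 3 same-numbered libraries of each KD line, and the numbers were not shown to pair the libraries. NES, the intermediate filament nestin, was at 6.60, 3.86 and 3.01 CPM in sgCtl, 54.9, 33.9 and 32.5 CPM in sgXIST7, and 182, 211 and 145 CPM in sgXIST9, also lowest in replicate 3 of each line (-0.50). ALDH1A3, an aldehyde dehydrogenase, was at 5.92, 3.46 and 5.93 CPM in sgCtl, 1.91, 1.36 and 0.950 CPM in sgXIST7, and 1.14, 1.36 and 1.76 CPM in sgXIST9 and had no common order of replicates (0.12). CD44, a hyaluronan receptor, had 0 counts in the 9 hypoxia libraries. The study measured CD44 as surface protein by flow cytometry and reported more CD44high/CD24low cells in OVCAR3-KRAB after XIST KD. RNA counts are an unlike measure, and the contrast between both was not tested.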

How the data were processed

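RNA-seq of total RNA was analyzed from 18 libraries, 3 in each of 6 groups. The authors prepared stranded libraries after ribosomal RNA depletion, used Trimmomatic for trimming, FastQC for read quality, hisat2 for alignment (genome build hg38) and featureCounts for counting, and the deposited values are these raw counts per gene, without normalization. The strand setting of the counting is not given in the sources used here, so that overlapping and antisense genes may share reads. Of 28279 lines in the table, 2 were a broken record and were left out, and 5287 of the 28277 genes had no count. DESeq2 was the tool of the authors for their own comparisons.

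The quasi-likelihood functions of edgeR 4.0.16 under R 4.3.3 (glmQLFit and glmQLFTest, robust) were run on these counts after TMM scaling and filterByExpr (minimum count 10, minimum total 15). The contrast of replicate 3 with replicates 1 and 2 had the guide as a block, in the 9 hypoxia and in the 9 normoxia libraries. P-values were adjusted over all genes with the Benjamini-Hochberg method, with a threshold of 0.05, or 0.01 and an absolute log2 fold change above 1 for hypoxia and KD comparisons. Scripts were tested on simulated data before use. DESeq2 1.42.0, other scalings, no filter, small noncoding RNAs left out, other thresholds, a fit of the 18 libraries, the replicate number as a block and each library left out were the alternatives. A thinning to the smallest library and each line left out were added after the data were seen. CPM used TMM factors over the 18 libraries, and medians by line a log2 scale with 0.5 CPM added. P-values were not adjusted over lists.

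The libraries, the 26 gene lists and the tests were chosen with earlier results of these data known. Genes were named by a rule: a mean of at least 100 counts in hypoxia and replicate 3 beyond both others in each line, the 15 largest differences in each direction, at most 5 members per list, CD24, ALDH1A3, NES, CD44 and XIST, and the 5 genes with the smallest p in each direction in normoxia. Some genes that the rule names are not reported here. Other genes are named where the text says so or as the members that a count of a list turns on. Promoter sequences are from RefSeq on GRCh38.p14. For sgXIST9 against sgCtl in hypoxia the deviations of same-numbered libraries from their group means had r = 0.35, 0.62 and 0.64 over 10711 genes. For sgXIST7 against sgCtl they had r = 0.42, -0.02 and 0.47. Deviations within a group cancel out, so that a shift shared by the replicate 3 libraries raises all of these values. Whether the numbers pair the cultures was therefore not shown.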

Additional observations from a re-analysis of the deposited data

Results flagged for a closer look

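Of 144 named genes tested in both conditions, 7 (4.86%) had replicate 3 beyond both other replicates in each line in both conditions but on opposite sides, and 2 (1.39%) on the same side. Over all 13929 genes tested in both conditions the counts were 323 (2.32%) and 246 (1.77%). The named genes were chosen partly on their hypoxia values, and the difference between the conditions was not tested. SEMA3B, ERO1A, P4HB and EDEM1 were higher in hypoxia, with normoxia log2 fold changes of -0.46, -0.08, -0.07 and -0.10. HSPA1B, HSPH1 and AHSA1 were lower in hypoxia, with normoxia log2 fold changes of 0.35, 0.14 and 0.21. No group has 4 or more libraries, so that single outlying libraries were not tested.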

How the results depend on the processing

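The 3783 genes of replicate 3 in hypoxia became 354 at an adjusted p of 0.01 with an absolute log2 fold change above 1, 1103 without the sgCtl line and 739 without the sgXIST9 line, and 1319 to 4546 with single libraries left out. In normoxia DESeq2 called 4 genes, the fit without a filter on low counts 2, and fits without single libraries 0 to 1. The 2446 genes of the difference became 219 at the stricter threshold and 862 to 3465 without single libraries. For sgXIST7 against sgCtl in hypoxia, 1347 became 2137 at an adjusted p of 0.05, 2206 with the replicate block, 2550 without replicate 3 and 659 to 2311 without single libraries. For sgXIST9, 966 became 1452 at an adjusted p of 0.05, 1596 without replicate 3 and 582 to 1389 without single libraries. The other alternatives stayed within 1.5 times of these counts, also for hypoxia against normoxia in replicates 1 and 2, where the 3670 genes became 3627 with the replicate block and 3624 to 3828 without single libraries. For the 30 genes with the largest differences, 514 values over all alternatives moved by less than the spread between replicates 1 and 2 and 56 by more, and none changed direction. Of 190 list medians, 2 moved by more than 0.2. Smaller shifts of list medians stand beside the lists. The cause of these changes was not tested.

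Of the hypoxia libraries, sgXIST7 replicate 2 had its highest correlation with another number in both other lines. In sgXIST9, sgXIST7 replicate 1 was closest to replicate 2 (r = 0.59, against 0.47 for its own number). Replicate 2 of sgCtl and of sgXIST9 was closest to replicate 1 of sgXIST7 (r = 0.37 and 0.59). Between sgCtl and sgXIST9 each library had its highest correlation with the same number, which does not show that the numbers pair the cultures. Depth limits genes under about 10 counts, and 3 libraries per group limit all comparisons.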
